A study of Mus musculus with 6 samples.

Results

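The replication-dependent histone genes encode the core histones H2A, H2B, H3 and H4 and the linker histone H1. Members were taken from the FPKM table by symbol: names starting with Hist1h, Hist2h, Hist3h or Hist4h, not joined by a comma to another gene, with lines of the same symbol summed and a value above 0 FPKM in at least 3 of the 6 samples. Of 63 such symbols, on 65 lines of a table with 26082 names, 54 met the rule. They were 5 H1, 14 H2A, 15 H2B, 9 H3 and 11 H4 genes, and 41 lay in the Hist1 cluster on chromosome 13, 9 in Hist2 on chromosome 3, 3 in Hist3 on chromosome 11 and 1 in Hist4 on chromosome 6. FPKM counts fragments relative to transcript length and library size. The 2 processed pseudogenes among the members, Hist3h2bb-ps and Hist1h2al, were kept because the rule goes by symbol.

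These genes are transcribed mainly in S phase, when the cell needs histones for newly made DNA. Their transcripts usually end in a conserved stem-loop instead of a poly(A) tail, and the stem-loop binding protein holds the message through processing, translation and decay. Some members are also made as polyadenylated messages, which are known from cells that have left the cycle or are differentiating. Most replacement variants encoded elsewhere are also expressed outside S phase.

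The study asked how activation of p53 alters MLL-AF9 leukemia, a mouse model of acute myeloid leukemia made by transducing hematopoietic progenitors with the MLL-AF9 fusion oncogene. RNA-Seq covered leukemia cells, sorted out of marrow, of 6 C57BL/6J mice, each carrying MLL-AF9 leukemia. Of these, 3 received vehicle and 3 received 80 mg/kg of DS-5272, given by mouth, which blocks binding of MDM2 to p53, and cells were collected 24 h later. The age of the mice is not given in the sources used here.

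Of 10 markers of the model 7 had an entry. The myeloid gene Cd33 stood at 212, 287 and 294 FPKM in vehicle replicates 1 to 3 and, after DS-5272, at 623, 625 and 868 FPKM, and the leukemia transcription factors Meis1 and Pbx3 were expressed in all 6 samples, Meis1 from 66.1 to 110 FPKM. Mef2c was near 0 in every vehicle sample (0.295, 0.115 and 0.0984 FPKM) and stood at 1.76, 2.45 and 1.54 FPKM after DS-5272. Of the 7 markers, all tested, 4 rose, Cd33 among them, against 24.2% of all genes. Kit alone fell, against 22% of all genes. Depth relative to vehicle replicate 1 was inferred from ratios of FPKM in lines under 0.15 FPKM in every sample, not from read counts. It was 0.808 and 0.885 in vehicle replicates 2 and 3 and 0.746, 0.652 and 0.539 in DS-5272 replicates 1 to 3. By this estimate every DS-5272 library was shallower than every vehicle library. In 20 members the FPKM could be read as whole fragments, of at most 20 in a sample and within 0.02 plus 0.015 per fragment of a whole number. Hist1h4b, for example, was read as 5, 15 and 15 fragments in the vehicle samples and as 0, 5 and 4 in the DS-5272 samples. Hist2h2ac was read as 8, 17 and 19 fragments and as 4, 20 and 7. The counts were inferred from steps in FPKM and not observed, and the tolerance is loose at the higher counts. These small numbers limit the precision of those members. Of all 54, 31 reached the mean of 1 FPKM required for the test and 23 did not.

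The sequence that sets these messages apart was searched for in the first 150 nt after the stop codon of the GENCODE M21 transcripts of GRCm38, as a stem of 6 pairs closed by a loop of 4 nt. It was found in 36 of the 54 members, and the 2 pseudogenes have no annotated stop codon. It was not found in the other 16, but most of these end at the stop codon in the annotation. Their window held no sequence to search. Among other coding transcripts the same search found 149 of 44277 (0.337%). The forms below are those of more than 1 member, together with that of Hist1h3g, each with stem bases in capitals and loop bases in lower case.
form of 19 members of H1, H2A, H2B and H3: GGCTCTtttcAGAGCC
form of 6 H4 members: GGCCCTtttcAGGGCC
form of 5 members of H1, H2B and H3: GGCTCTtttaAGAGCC
form of Hist1h4b and Hist1h4j: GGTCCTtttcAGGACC
form of Hist1h3g: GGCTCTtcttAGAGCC
The 10 H4 members with a stem-loop thus differ from the other classes in the middle of the stem, where both sides of the stem change together. The annotated transcript of Hist1h2bc, the member with the highest mean, holds no such stem-loop in the window and runs from 1 exon into another.

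Promoters were compared in the RefSeq table of GRCm38.p6, which matched all 54 members and holds 300 bases, 250 before and 50 after the start, for 48 of them. They were searched on both strands for the box CCAAT bound by NF-Y. The search also covered the TATA box in the form TATAAA. The octamer bound by POU factors was searched as ATTTGCAT. The H1 box, known from linker histone promoters, was searched as AAACACA. The box CCAAT was in 41 of the 48 (85.4%) and in 37.4% of all 32851 promoters of the table. TATAAA was in 28 (58.3%) and in 13.6% of all, and the octamer was in 10 (20.8%) and in 1.74% of all. The H1 box was in 6 (12.5%), of which 4 were H1 promoters, and in 7.18% of all. All 7 promoters without CCAAT belonged to H4 genes, and all 10 with the octamer to H2A or H2B genes. A match is a description of letters and not of a bound factor. The promoters of the members with the lowest log2 fold change in each class are printed because these genes are described below, with matches to the 4 motifs on either strand in capitals and the build and strand of RefSeq GRCm38.p6. They lie at chr13:21780576-21780875 (- strand) for Hist1h1b, chr13:21810117-21810416 (+ strand) for Hist1h2ao, chr13:21721794-21722093 (+ strand) for Hist1h2bm, chr13:23535168-23535467 (+ strand) for Hist1h3g and chr13:23756687-23756986 (+ strand) for Hist1h4b.
Hist1h1b: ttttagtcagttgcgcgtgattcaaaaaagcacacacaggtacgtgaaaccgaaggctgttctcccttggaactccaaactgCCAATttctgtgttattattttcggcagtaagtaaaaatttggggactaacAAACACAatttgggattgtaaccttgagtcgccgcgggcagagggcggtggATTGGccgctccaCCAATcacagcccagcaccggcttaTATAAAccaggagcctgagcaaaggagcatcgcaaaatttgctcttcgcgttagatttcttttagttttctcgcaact
Hist1h2ao: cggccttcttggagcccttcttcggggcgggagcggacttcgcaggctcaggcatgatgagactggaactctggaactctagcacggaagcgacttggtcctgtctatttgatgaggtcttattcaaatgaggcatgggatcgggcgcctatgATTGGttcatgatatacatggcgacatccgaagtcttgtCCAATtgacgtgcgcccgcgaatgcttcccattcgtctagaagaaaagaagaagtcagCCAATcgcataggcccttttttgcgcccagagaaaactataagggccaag
Hist1h2bm: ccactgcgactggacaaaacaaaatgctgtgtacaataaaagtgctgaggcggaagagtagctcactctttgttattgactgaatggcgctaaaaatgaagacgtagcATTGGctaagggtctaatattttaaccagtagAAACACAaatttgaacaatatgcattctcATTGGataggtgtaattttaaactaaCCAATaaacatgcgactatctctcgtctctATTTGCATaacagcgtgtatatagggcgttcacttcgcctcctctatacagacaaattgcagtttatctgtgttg
Hist1h3g: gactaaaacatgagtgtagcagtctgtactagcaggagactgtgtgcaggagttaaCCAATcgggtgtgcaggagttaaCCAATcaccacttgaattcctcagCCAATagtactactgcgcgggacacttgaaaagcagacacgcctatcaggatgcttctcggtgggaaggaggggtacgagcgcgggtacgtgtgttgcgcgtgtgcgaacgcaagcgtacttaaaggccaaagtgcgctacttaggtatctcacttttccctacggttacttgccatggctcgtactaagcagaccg
Hist1h4b: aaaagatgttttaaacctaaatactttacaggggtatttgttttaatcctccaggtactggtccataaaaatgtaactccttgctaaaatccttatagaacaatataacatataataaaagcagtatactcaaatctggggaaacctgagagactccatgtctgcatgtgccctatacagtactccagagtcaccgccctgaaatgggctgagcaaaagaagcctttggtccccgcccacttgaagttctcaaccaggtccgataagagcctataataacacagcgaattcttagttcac
The H1 promoter holds both the H1 box and TATAAA, the H2B promoter holds both the octamer and the H1 box, and the H4 promoter has none of these letters in capitals.

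The summed level of the 54 members was 75.9, 394 and 420 FPKM in vehicle replicates 1 to 3 and 64.1, 281 and 278 FPKM in DS-5272 replicates 1 to 3. Replicate 1 was the low sample in both groups, and within each same-numbered pair the DS-5272 sample was lower, at 0.845, 0.713 and 0.660 of its vehicle partner. A partner here is only the sample with the same number, since the labels name no pairing. In bulk RNA, fewer cells in S phase and less histone RNA per cell cannot be told apart. Hist1h2bc and Hist1h1c together made up 35.3%, 58.1% and 64.4% of the sum in the vehicle samples and 63.9%, 67.3% and 69.0% in the DS-5272 samples. The other 52 members summed to 49.1, 165 and 150 FPKM and to 23.2, 91.9 and 86.1 FPKM, which is 0.472, 0.556 and 0.576 of the vehicle partner. These sums are values without a test.

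**Figure D1:**
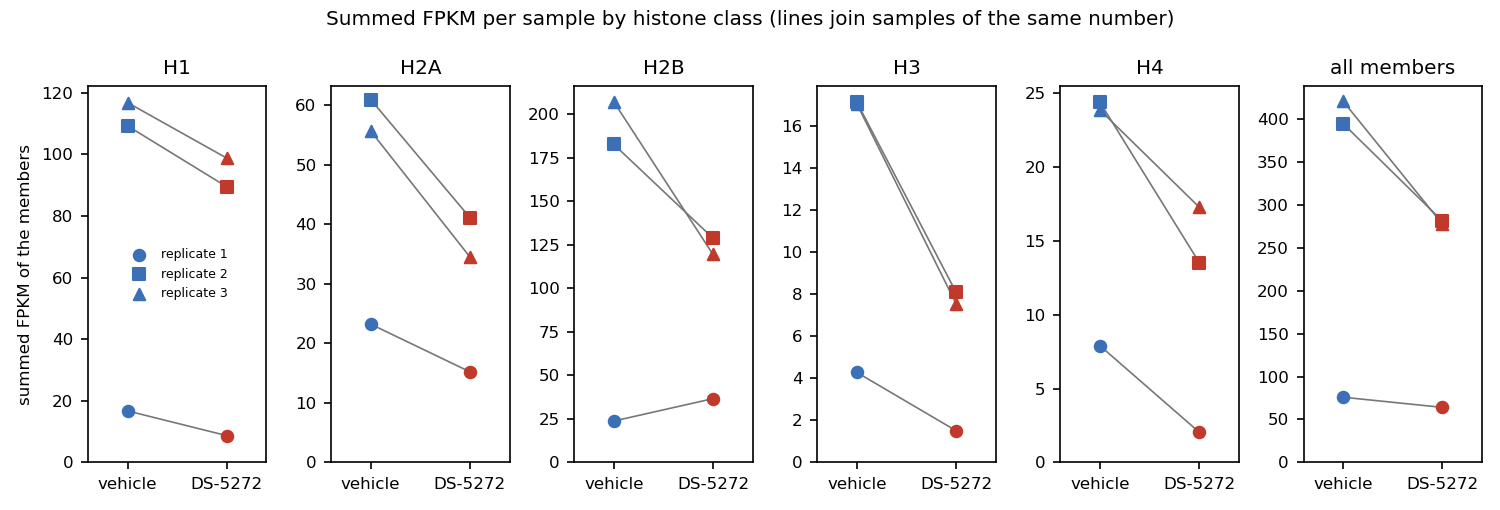
Summed FPKM of the members of each class and of all 54 in every sample, on linear axes that start at 0, with blue points for vehicle, red points for DS-5272, a symbol for each replicate number and lines joining samples of the same number. All lines slope down except that of H2B replicate 1, which goes from 23.8 to 36.6 FPKM.

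Low values in replicate 1 were shared by nearly all members. Of the 31 tested members, 30 (96.8%) had their lowest value in replicate 1 of both groups, against 29.2% of all 11130 genes tested. Within the vehicle group, replicate 1 differed from the mean of the other replicates by a median of −1.004 on the log2 scale for these members and of −0.01 for all genes. In the DS-5272 group the medians were −1.15 and −0.06. Of 10 neutrophil granule genes, 7 were also lowest in replicate 1 of both groups, while Ctsg, with the highest mean of the list, was highest there in both. The 28 DNA synthesis genes summed to 1783, 1636 and 1671 FPKM in the vehicle samples, with replicate 1 the highest, and to 503, 846 and 350 FPKM in the DS-5272 samples, with replicate 2 the highest. The part of any of these in the histone values was not tested, and the labels name no batch for replicate 1.

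Lists of markers of other cells were read in the same samples. Of 10 macrophage markers 9 had an entry, and their sum was 61.0, 80.5 and 117 FPKM in vehicle and 587, 127 and 162 FPKM in DS-5272, highest in DS-5272 replicate 1, where Apoe was the most abundant (211 FPKM), while Vcam1 had the highest mean over all samples. Of 9 erythroid markers 6 had an entry, and they summed to 4.68, 2.64 and 2.53 FPKM and to 146, 27.5 and 12.8 FPKM. Hba-a1 was highest in every DS-5272 sample, while the erythroid factor Klf1 was under 0.5 FPKM in every sample. The NK cell list of 8 summed to 1.66, 1.404 and 2.31 FPKM and to 3.93, 2.70 and 3.44 FPKM, with Nkg7 highest in every vehicle sample, Gzma above it in DS-5272 replicates 1 and 2, and 6 genes under 0.5 FPKM in every sample. Of 8 T cell markers 7 had an entry, with Lck highest in every sample but DS-5272 replicate 1, where Cd4 was at 3.28 FPKM, and 5 stayed under 0.5 FPKM, as did 5 of the 8 B cell markers, which Cd79b led. The sums were 2.43, 1.95 and 2.55 FPKM and 4.81, 1.56 and 1.91 FPKM for T cells, and 8.01, 5.96 and 5.66 FPKM and 6.16, 4.74 and 4.91 FPKM for B cells. The 6 megakaryocyte markers summed to 2.83, 2.62 and 2.91 FPKM and to 8.20, 5.72 and 4.96 FPKM, and Pf4 was highest in DS-5272 replicates 1 and 2. The 10 neutrophil granule genes summed to 4272, 4794 and 5632 FPKM and to 2618, 3639 and 4386 FPKM. These sums follow the abundant genes, since 4 of the 10 fell and 4 rose at a median log2 fold change of 1.804. Of all genes, 22% fell and 24.2% rose. With the replicate number as a block, 4 of the 10 fell and 6 rose, against 24.9% and 30.3% of all genes. The part of these cells in the histone values was not tested.

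With limma on log2(FPKM + 1), 6 of the 31 tested members (19.4%) fell after DS-5272 at an adjusted p under 0.05, against 22% of all 11130 genes tested, so the share of members called lower was near the background. No member rose (0 of 31, and also 0 at an unadjusted p under 0.05), against 24.2% of all genes at the adjusted and 29.5% at the unadjusted threshold. At an unadjusted p under 0.05, 6 members were lower, against 26.1% of all genes. Among the 6 called, Hist1h1b, Hist1h2ak, Hist1h2bm and Hist1h3g had DS-5272 means of 0.440, 0.467, 0.5005 and 0.295 FPKM. Their vehicle means ran from 2.33 to 2.69 FPKM, so they met the filter of 1 FPKM through the vehicle samples. The DS-5272 means of Hist1h2ao and Hist2h2be, 5.39 and 1.45 FPKM, were above the filter. The median log2 fold change was −0.62 over the tested members, 27 of them below 0, and 0.04 over all genes. With no filter on low values it was −0.48 over all 54 members and 0.00618 over all genes. The members' median was −1.04 without vehicle replicate 1, −0.38 without vehicle replicate 2, −0.20 without DS-5272 replicate 1, −1.22 at a pseudocount of 0.1 and −0.14 over the 6 members left at a mean of at least 5 FPKM. The groups did not overlap, with the DS-5272 samples lower, in 5 tested members (16.1%), against 29.7% of all genes, and in 0 with DS-5272 higher, against 32.1%. The count of 6 was 9 of 33 tested without vehicle replicate 1 (15.1% of all genes), 0 of 26 without vehicle replicate 2 (12.6%) and 1 of 26 without vehicle replicate 3 (13.3%). It was 1 of 33 without DS-5272 replicate 1 (22.1%), 5 of 30 without DS-5272 replicate 2 (20.3%) and 2 of 31 without DS-5272 replicate 3 (19.8%).

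Within same-numbered pairs the members differed more from the background. With the replicate number as a block, 18 of the 31 (58.1%) fell, against 24.9% of all genes, and 0 rose, against 30.3%. These 18 included 5 of the 6 genes called without the block. All 3 pairs had the DS-5272 sample lower in 23 of the 31 (74.2%), against 37.3% of all genes, and higher in 0, against 41.8%. The same held for 35 of all 54 members (64.8%), the 23 low ones included, against 32.1% of the 16343 genes above 0 in at least 3 samples. When both samples numbered 1 were left out, 36 members could be tested and 15 fell (41.7%), against 14.9% of all genes, while 0 rose, against 22.6%. Of these 15 genes, 11 were also called with the block. With no filter on low values, 5 of the 54 members (9.26%) fell, against 13.7% of all genes, and 19 (35.2%) fell with the block, against 14.6%. Whether the members differ from other genes was described by these shares and was not tested.

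**Figure D2:**
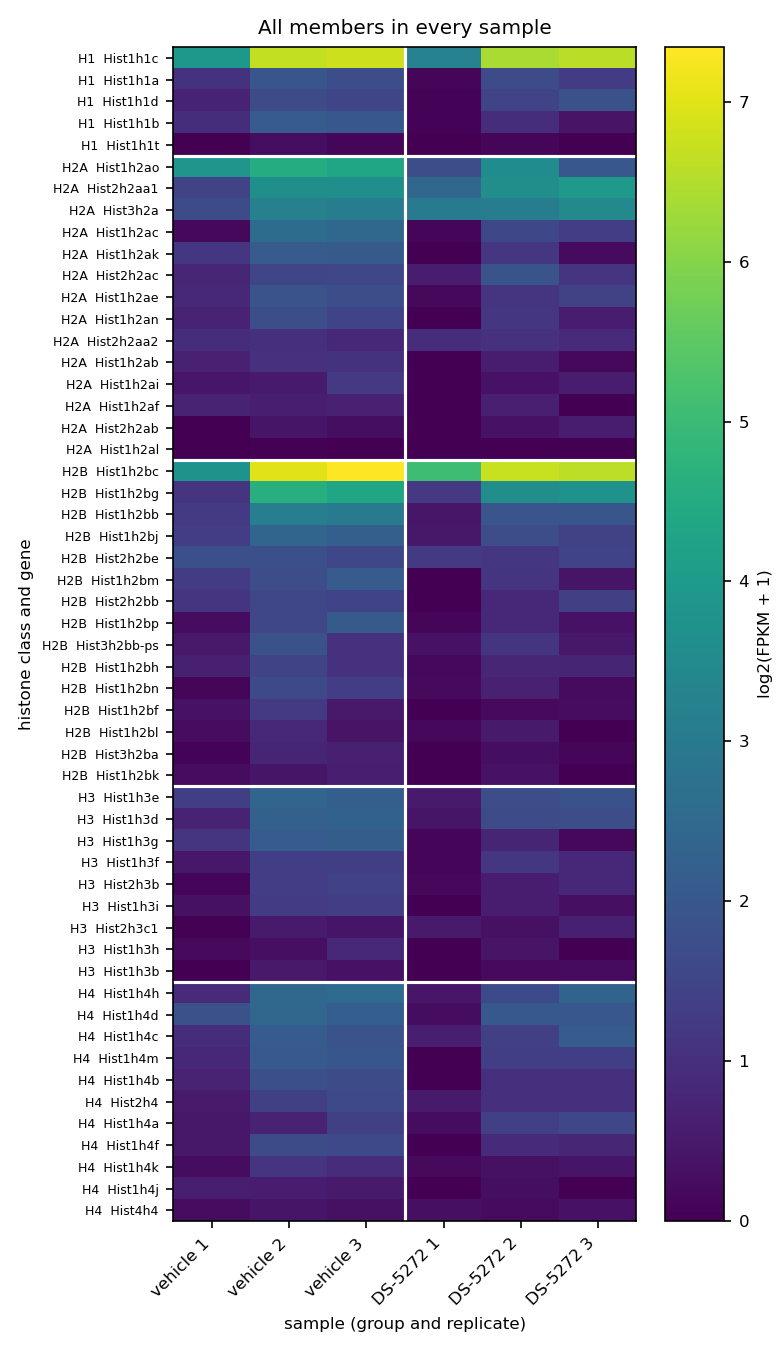
The log2(FPKM + 1) level of all 54 members in every sample, as color from 0 (dark) to above 7 (yellow), with members ordered by class and by level within a class and a white line between vehicle and DS-5272. Hist1h1c and Hist1h2bc are the brightest members, and the replicate 1 columns of both groups are dark for nearly all members.

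H1 proteins bind the linker DNA between nucleosomes. Hist1h1c, the H1 member with the highest mean over the 6 samples, was at 14.1, 101 and 110 FPKM in vehicle replicates 1 to 3 and, after DS-5272, at 8.49, 84.4 and 94.5 FPKM in the same order. Replicate 1 was far below the others in both groups, so the groups overlapped. Its log2 fold change of −0.38 (SE 1.11, n = 3 per group) had an adjusted p of 0.795 in limma. With the block the adjusted p was 0.0441, lower in 3 of 3 pairs, but 0.0789 with the block and no filter and 0.166 without both samples numbered 1, and over all alternatives it ran from 0.0441 to 0.972. The direction turned, at 0.71, without DS-5272 replicate 1, and was 0.06 and 0.12 without vehicle replicates 2 and 3, while it was −1.31 without vehicle replicate 1 and −0.88 and −0.96 without DS-5272 replicates 2 and 3. Hist1h1b, another linker histone (chr13:21779883-21780625, - strand, GENCODE M21), was at 0.956, 3.28 and 2.95 FPKM in vehicle and at 0.0556, 0.956 and 0.308 FPKM in DS-5272. The highest DS-5272 value, in replicate 2, equalled the lowest vehicle value to 3 digits. It fell by 1.205 on the log2 scale (SE 0.363, adjusted p = 0.0331, lower in 3 of 3 pairs). Its adjusted p was above 0.05 without vehicle replicate 2 (0.110), vehicle replicate 3 (0.103), DS-5272 replicate 1 (0.0772) or DS-5272 replicate 3 (0.0851) and with no filter (0.0610). The 4 tested of 5 H1 members ranged from −1.205 to −0.18 with a median of −0.47, and 1 fell, or 3 with the block (all genes: 22%, or 24.9% with the block). In the fit without both samples numbered 1 the count was 1 of 4, against 14.9% of all genes. With the block and no filter only Hist1h1b of the class was called. The H1 median was −1.07, −0.18 and −0.28 without vehicle replicates 1, 2 and 3, and 0.12, −0.88 and −0.82 without DS-5272 replicates 1, 2 and 3. The class summed to 16.7, 109 and 117 FPKM in vehicle and to 8.69, 89.5 and 98.8 FPKM in DS-5272.

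H2A forms a dimer with H2B in the nucleosome core. Hist1h2ao (chr13:21810465-21810944, + strand) had the highest mean of the H2A members over the 6 samples, at 13.1, 22.5 and 18.8 FPKM in vehicle and at 2.31, 10.9 and 2.98 FPKM in DS-5272. Every DS-5272 sample was below every vehicle sample, and DS-5272 replicate 2 was the highest of its group. Within the DS-5272 group, Hist2h2aa1 and Hist3h2a had higher means. Hist1h2ao fell by 1.797 on the log2 scale (SE 0.481, adjusted p = 0.0224, lower in 3 of 3 pairs). This call was lost without vehicle replicate 2 (adjusted p = 0.0763), vehicle replicate 3 (0.0634), DS-5272 replicate 1 (0.0507) or DS-5272 replicate 3 (0.0683), and without both samples numbered 1 (0.0661). Its level is uncertain, since 92.7% of its 100-base windows also occur in other genes, and the authors' handling of reads with several matches is not given in the sources used here. Hist1h2ak, chosen after its values were seen, was at 1.25, 3.29 and 3.21 FPKM in vehicle and at 0, 1.24 and 0.165 FPKM in DS-5272. Its groups did not overlap, although the margin between vehicle replicate 1 and DS-5272 replicate 2 was narrow. It fell by 1.32 (SE 0.381, adjusted p = 0.0287, lower in 3 of 3 pairs), with an adjusted p from 0.0666 to 0.0972 without vehicle replicate 2, vehicle replicate 3, DS-5272 replicate 1 or DS-5272 replicate 3, and of 0.0550 with no filter.

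Hist3h2a had the highest log2 fold change of all tested members, at 2.24, 8.13 and 7.45 FPKM in vehicle and 6.92, 7.68 and 10.01 FPKM in DS-5272. Vehicle replicate 1 was low and the other 5 samples lay close together, so the groups overlapped. The log2 fold change was 0.53 (SE 0.397, adjusted p = 0.3001), with the DS-5272 sample higher in 2 of 3 pairs. It was 0.05 without vehicle replicate 1, 0.8001 without vehicle replicate 2 and 0.15 without both samples numbered 1. The annotated exon of Hist3h2a overlaps Trim17 on the same strand, and fragments of the genes could not be separated. Of the 8 tested of 14 H2A members 2 fell, which is near the background, or 5 with the block (all genes: 22%, or 24.9% with the block). In the fit without both samples numbered 1 the count was 2 of 8, against 14.9% of all genes. The 8 ranged from −1.797 to 0.53 with a median of −0.65. That median was −0.98, −0.29 and −0.35 without vehicle replicates 1, 2 and 3 and −0.23 without DS-5272 replicate 1, and it turned to 0.41 at a mean of at least 5 FPKM. The H2A sum was 23.2, 60.9 and 55.6 FPKM in vehicle and 15.2, 41.1 and 34.5 FPKM in DS-5272.

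Among H2B genes, Hist1h2bc (chr13:23684199-23692908, + strand) had the highest mean of all 54 members, at 12.7, 128 and 161 FPKM in vehicle and at 32.4, 105 and 96.9 FPKM in DS-5272. The DS-5272 sample was higher in the replicate 1 pair and lower in both other pairs, and the groups overlapped. The log2 fold change of 0.09 (SE 0.971, adjusted p = 0.947) was the highest of the H2B class. It turned to −0.05 after scaling to a common upper quartile and to −0.17 after scaling to a common total. It was also below 0 without vehicle replicate 1 (−1.04), DS-5272 replicate 2 (−0.21) or DS-5272 replicate 3 (−0.15), and at −0.51 without both samples numbered 1, and it was 0.57 and 0.74 without vehicle replicates 2 and 3 and 0.62 without DS-5272 replicate 1. Hist1h2bm (chr13:21722044-21722567, + strand) was at 1.41, 2.30 and 3.27 FPKM in vehicle and at 0, 1.15 and 0.347 FPKM in DS-5272. All DS-5272 samples were below all vehicle samples, and DS-5272 replicate 1 was at 0. It fell by 1.18 (SE 0.332, adjusted p = 0.0261, lower in 3 of 3 pairs), and the call was lost without vehicle replicate 2 (adjusted p = 0.0786), vehicle replicate 3 (0.0856), DS-5272 replicate 1 (0.0532) or DS-5272 replicate 3 (0.0696) and at a pseudocount of 0.1 (0.0520).

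Hist2h2be of the Hist2 cluster, chosen after its values were seen, was at 2.45, 2.47 and 1.97 FPKM in vehicle and at 1.35, 1.24 and 1.76 FPKM in DS-5272. It was the 1 tested member without its lowest value in replicate 1 of both groups, and its groups did not overlap. It fell by 0.43 (SE 0.144, adjusted p = 0.0478, lower in 3 of 3 pairs), with an adjusted p of 0.0599 with the block and of 0.0180 to 0.157 over 16 alternatives, of which 10 lost the call. These 10 include the fits without any of vehicle replicates 1 to 3 or DS-5272 replicates 1 and 2, with adjusted p from 0.0800 to 0.157. The 8 tested of 15 H2B members ranged from −1.18 to 0.09 with a median of −0.70, and 2 fell, which is near the background, or 3 with the block (all genes: 22%, or 24.9% with the block). In the fit without both samples numbered 1 the count was 6 of 11, against 14.9% of all genes. The H2B median was −1.10 without vehicle replicate 1 and −0.39 without DS-5272 replicate 1. The class summed to 23.8, 183 and 207 FPKM in vehicle and to 36.6, 129 and 119 FPKM in DS-5272.

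H3 and H4 form the tetramer at the center of the nucleosome. Hist1h3e, the H3 member with the highest mean, was at 1.58, 4.29 and 3.55 FPKM in vehicle and at 0.444, 2.30 and 2.61 FPKM in DS-5272. The DS-5272 sample was lower in every pair, while DS-5272 replicates 2 and 3 lay above vehicle replicate 1. The log2 fold change was −0.62 (SE 0.419, adjusted p = 0.259). The adjusted p was 0.0161 with the block but 0.0515 without both samples numbered 1, and ran from 0.0161 to 0.622 over 16 alternatives. Its log2 fold change was −0.93 and −0.41 without vehicle replicates 1 and 2 in turn and −0.20 without DS-5272 replicate 1. Hist1h3g (chr13:23535422-23535951, + strand) was at 1.14, 3.43 and 3.50 FPKM in vehicle and at 0.0848, 0.682 and 0.117 FPKM in DS-5272. Every DS-5272 sample was below every vehicle sample. It fell by 1.46 (SE 0.337, adjusted p = 0.0138, lower in 3 of 3 pairs), and the adjusted p was 0.0539 without vehicle replicate 2. The stem-loop of Hist1h3g, printed above, differs from the common form in its loop alone. All 3 tested of 9 H3 members were below 0, from −1.46 to −0.49 with a median of −0.62, and 1 fell, or 3 with the block (all genes: 22%, or 24.9% with the block). In the fit without both samples numbered 1 the count was 3 of 5, against 14.9% of all genes. Without vehicle replicates 1 and 2 in turn the median was −0.96 and −0.41, and without DS-5272 replicate 1 it was −0.13. The H3 sum was 4.28, 17.1 and 17.1 FPKM in vehicle and 1.51, 8.09 and 7.55 FPKM in DS-5272.

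The H4 member with the highest mean, Hist1h4h, was at 0.858, 4.46 and 4.97 FPKM in vehicle and at 0.352, 2.13 and 4.02 FPKM in DS-5272. Its groups overlapped, and each DS-5272 sample was below its vehicle partner. The log2 fold change was −0.50 (SE 0.606, adjusted p = 0.515), the adjusted p with the block was 0.0342 (0.0342 to 0.987 over 16 alternatives), and it was 0.0805 with the block and no filter and 0.156 without both samples numbered 1. The direction turned to 0.01 without DS-5272 replicate 1, and the value was −0.93 without DS-5272 replicate 3 and −1.04, −0.27 and −0.20 without vehicle replicates 1 to 3 in turn. Hist1h4b (chr13:23757013-23757409, + strand) was at 0.668, 2.44 and 2.25 FPKM in vehicle and at 0, 1.03 and 0.982 FPKM in DS-5272. DS-5272 replicate 1 was at 0, and the other DS-5272 samples lay between vehicle replicate 1 and the other vehicle samples. Its log2 fold change of −0.74 (SE 0.385) had an adjusted p of 0.155, of 0.00618 with the block and of 0.0224 without both samples numbered 1, with 0.00618 to 0.351 over the 15 alternatives in which it was tested, and the fold change was −0.40 without DS-5272 replicate 1. Hist1h4a was at 0.401, 0.652 and 1.65 FPKM in vehicle and at 0.178, 1.64 and 1.96 FPKM in DS-5272. It was higher with DS-5272 in 2 of 3 pairs, and its log2 fold change of 0.20 (SE 0.405, adjusted p = 0.708) did not pass. It was 0.00455 and 0.12 without vehicle replicates 1 and 2 in turn and 0.61 without DS-5272 replicate 1. The 8 tested of 11 H4 members ranged from −0.74 to 0.20 with a median of −0.60, and 0 fell, or 4 with the block (all genes: 22%, or 24.9% with the block). In the fit without both samples numbered 1 the count was 3 of 8, against 14.9% of all genes. The H4 median was −0.97 and −0.27 without vehicle replicates 1 and 2 in turn and −0.16 without DS-5272 replicate 1. The class summed to 7.89, 24.4 and 23.8 FPKM in vehicle and to 2.04, 13.5 and 17.3 FPKM in DS-5272.

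**Figure D3:**
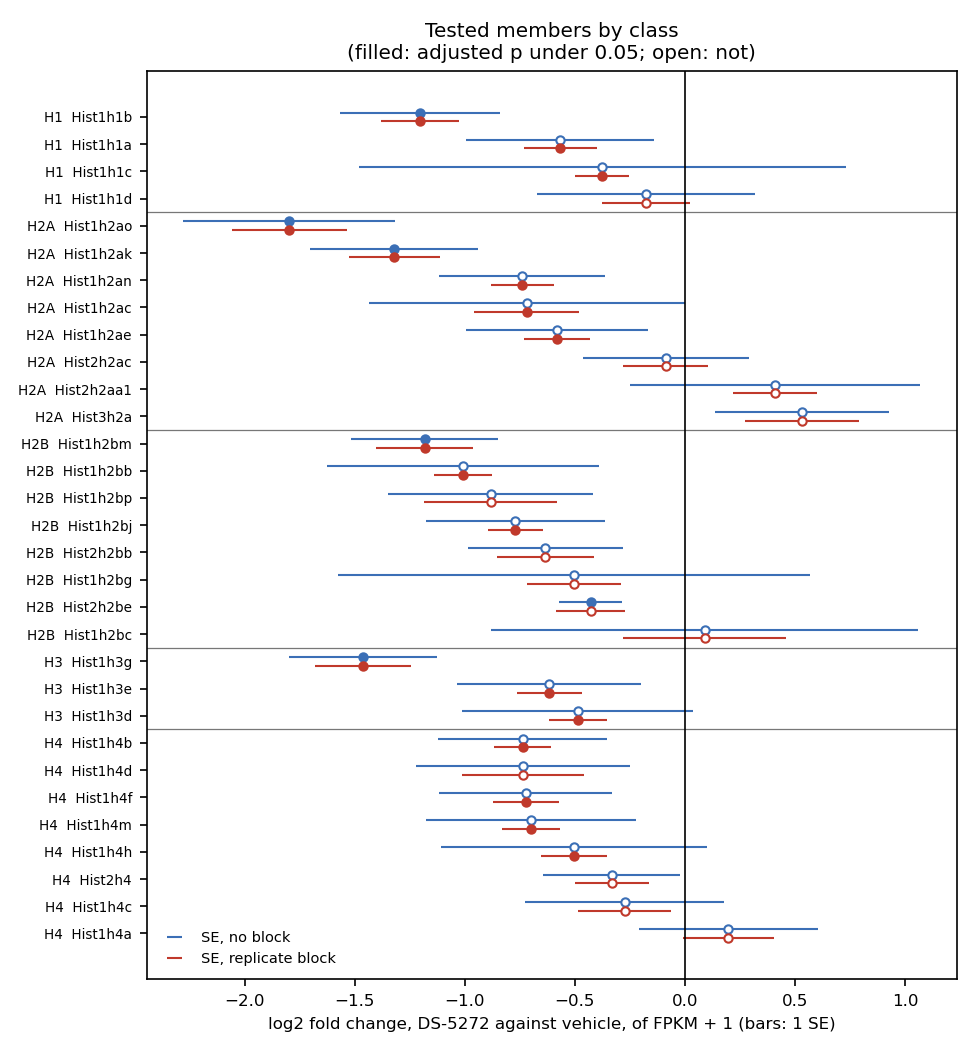
Log2 fold change of FPKM + 1, DS-5272 against vehicle, of the 31 tested members by class, with bars of 1 SE, blue without a block and red with the replicate block, and filled points at an adjusted p under 0.05. The points are the same in both fits and the bars are shorter with the block except that of Hist2h2be, 27 members lie below 0, and Hist1h2bc at 0.09 turns negative after scaling to a common upper quartile or total.

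Scaling matters for these directions, because the FPKM sum over all genes was higher in the DS-5272 sample of each pair. Scaling to a common total moved the median log2 fold change of all genes by −0.24 and scaling to a common upper quartile moved it by −0.12. The members' median stayed below that of all genes: −0.98 over 39 tested members against −0.20 over 11882 genes with a common total, and −0.72 over 31 against −0.08 over 11134 with a common upper quartile. A common median ratio moved little, with a shift of −0.04, a members' median of −0.65 and 50.7% of the genes called higher. Of the genes called, 52.4% were higher with the deposited values, 32.9% with a common total and 41.2% with a common upper quartile.

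By cluster, the 25 tested Hist1 members had a median log2 fold change of −0.72, and 5 fell, which is near the background, or 18 with the block (all genes: 22%, or 24.9% with the block). The 5 tested Hist2 members had a median of −0.33, and 1 fell, also near the background, or 0 with the block. Hist3h2a was the 1 tested Hist3 member, and Hist4h4 was not tested. Differences between clusters were not tested.

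Members also differed in how far the annotated transcript runs past the stop codon. In 18 members the longest GENCODE transcript runs more than 200 nt past it, and in 34 it does not. The 18 summed to 40.1, 270 and 307 FPKM in vehicle and to 52.1, 215 and 222 FPKM in DS-5272. That is 1.30, 0.797 and 0.724 of the vehicle partner, so the replicate 1 pair went the other way from the others. The 34 summed to 35.4, 122 and 113 FPKM and to 11.6, 64.8 and 55.1 FPKM, which is 0.329, 0.532 and 0.490 of the partner. Of the 11 tested members with the longer end, 1 fell, or 4 with the block, at a median of −0.38. Of the 20 with the shorter end, 5 fell, or 14 with the block, at a median of −0.73 (all genes: 22%, or 24.9% with the block). The count of 5 without the block is near the background. Without both samples numbered 1 the medians were −0.37 and −0.75. Hist1h2bc and Hist1h1c, both with the longer end (742 and 880 nt), hold most of that sum, and without them the 9 other tested members had a median of −0.43, and the ratios were 0.843, 0.632 and 0.850. The difference between the groups was not tested. Poly(A) selection, which would count messages without a tail less fully, is neither stated nor excluded in the sources used here, so the levels of members cannot be ranked as amounts of RNA. The authors' transcript models can differ from GENCODE. As inferred, 1 fragment was worth the same FPKM in vehicle replicate 1 (0.0930) in Hist1h2bf and Hist1h2bh. GENCODE ends them 74 and 1258 nt past the stop codon.

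**Figure D4:**
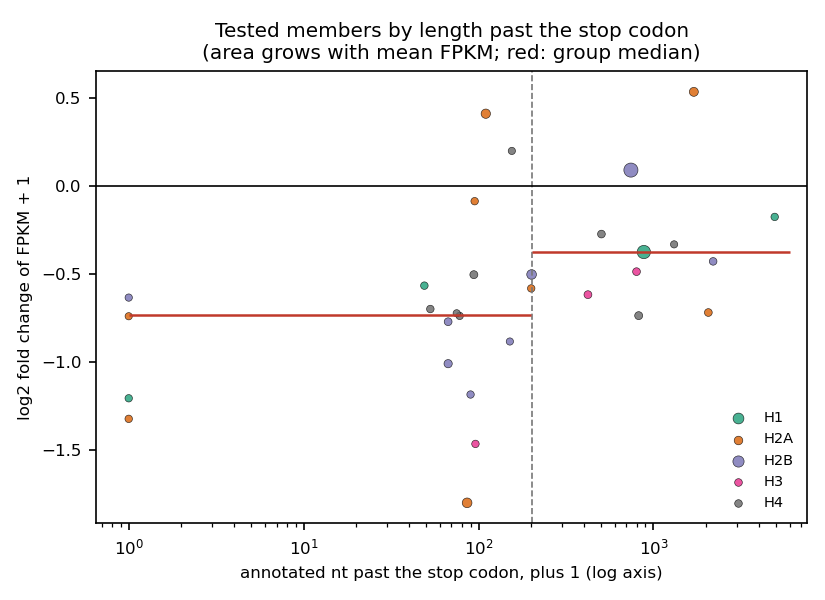
Log2 fold change of FPKM + 1 of the 31 tested members against the annotated length past the stop codon plus 1 nt on a log axis, colored by class, with point area growing with mean FPKM, a dashed line at 200 nt and red lines at the median of each side. The medians are −0.73 up to 200 nt and −0.38 beyond it, and the large point near 0 beyond the line is Hist1h2bc, which turns negative with a common upper quartile or total.

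Members were also grouped by the stem-loop itself, and this difference was not tested either. The 24 tested members with a stem-loop in the window had a median log2 fold change of −0.60, and 3 fell, or 14 with the block (all genes: 22%, or 24.9% with the block). The 7 without it had a median of −0.63, and 3 fell, or 4 with the block. Most of those without it end at the stop codon in the annotation, so the window was empty there and a stem-loop could not be seen. Among the genes that fell, Hist1h2ao, Hist1h2bm and Hist1h3g hold the stem-loop, and Hist2h2be does not hold it in the window. Hist1h1b and Hist1h2ak end at the stop codon in the annotation, so they could not be searched. Near-identical copies limit all values by gene: 48 of the 54 members share at least 1 window of 100 bases with another gene and 17 share over 50% of them. Among those that fell the share was 0% for Hist1h1b and Hist2h2be, 6.59% for Hist1h2bm, 10.5% for Hist1h2ak and 37.1% for Hist1h3g. Exons of 18 members also overlap another annotated gene, and whether strand was used in counting is not stated.

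Regulators of histone transcription include the coactivator Npat, its partner Casp8ap2 and the cyclins and kinase that act on Npat. Of 12 such genes 11 were tested, and 9 fell and 0 rose, against 22% and 24.2% of all genes, at a median log2 fold change of −0.76. The cyclin gene Ccna2 was at 89.2, 84.2 and 78.4 FPKM in vehicle and at 10.1, 35.5 and 3.86 FPKM in DS-5272. Its groups were far apart, with DS-5272 replicate 2 nearest to vehicle, and it fell by 2.76 (SE 0.656, adjusted p = 0.0152). Npat fell by 0.61 (SE 0.144, adjusted p = 0.0145) and Casp8ap2 by 0.76 (SE 0.120, adjusted p = 0.00486). Cramp1l had the highest value of the list at 0.33 (SE 0.169, adjusted p = 0.149), which was 0.15 without DS-5272 replicate 3. Without both samples numbered 1, 2 of the 11 fell, near the 14.9% of all genes in that fit, and the adjusted p was 0.0851 for Ccna2 and 0.0543 for Npat, which was also not called with the block and no filter (0.0665). Without vehicle replicate 2 that of Ccna2 was 0.0503.

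Processing factors act where the message is cleaved after the stem-loop. Several of those listed, such as Snrpd3 and Ncbp1, also serve other RNAs, so the counts are not of histone-specific factors. Of 17 listed genes 15 were tested, and 13 fell and 0 rose, against 22% and 24.2% of all genes, at a median of −0.69. Slbp, which encodes the stem-loop binding protein, was at 70.8, 67.4 and 74.9 FPKM in vehicle and at 30.1, 45.7 and 27.5 FPKM in DS-5272. All vehicle samples were above all DS-5272 samples, and vehicle replicate 1 was not low. Slbp fell by 1.06 (SE 0.190, adjusted p = 0.00670). Snrpd3, a ring protein of the snRNP that guides the cleavage, had the highest mean of the list and fell by 0.83 (SE 0.152, adjusted p = 0.00703). Decay and translation factors acting on the stem-loop were mixed, with 3 of 8 lower and 1 higher, against 22% and 24.2% of all genes, and a median of −0.18. In that list Zcchc11 fell by 0.63 (SE 0.132, adjusted p = 0.0102), and Zcchc6 rose by 0.90 (SE 0.183, adjusted p = 0.00926), and both encode enzymes that add uridines to RNA ends. With a common total 5 of the 8 were lower, against 30.4% of all genes, and 1 was without both samples numbered 1, against 14.9%.

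Histone chaperones carry newly made histones to DNA. Of 25 listed genes 21 were tested, and 14 fell and 2 rose, against 22% and 24.2% of all genes, at a median of −0.93. Asf1b, a chaperone of H3 and H4, was at 43.8, 40.2 and 37.4 FPKM in vehicle and at 8.76, 18.8 and 3.58 FPKM in DS-5272. DS-5272 replicate 2 was again nearest to the vehicle samples, and the groups did not overlap. It fell by 2.11 (SE 0.479, adjusted p = 0.0132). The subunits of the replication-coupled assembly factor fell as well, Chaf1a by 1.13 (SE 0.191, adjusted p = 0.00572) and Chaf1b by 0.93 (SE 0.196, adjusted p = 0.0104). Nap1l1, a chaperone of H2A and H2B with the highest mean of the list, fell by 1.41 (SE 0.198, adjusted p = 0.00364). The 2 that rose were Daxx, by 0.94 (SE 0.145, adjusted p = 0.00452), and Cabin1, chosen after its values were seen, by 0.36 (SE 0.103, adjusted p = 0.0294). The count of 2 was 1 without vehicle replicate 1, 2 or 3 or DS-5272 replicate 2, with a common total, and without both samples numbered 1, where 22.6% of all genes rose. In that last fit the adjusted p was 0.0731 for Asf1b and 0.0583 for Chaf1b.

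The variants listed as replication-independent, a label that is not strict for H2afx and Cenpa, differed among themselves. Of 11 listed genes 10 were tested, and 5 fell and 1 rose, against 22% and 24.2% of all genes, or 6 and 2 with the block, against 24.9% and 30.3%, at a median of −0.88. H2afz, a variant placed near promoters, fell by 1.53 (SE 0.260, adjusted p = 0.00573), and H2afx, the variant phosphorylated at DNA breaks, by 1.32 (SE 0.228, adjusted p = 0.00598). Cenpa, the H3 variant of centromeres, fell by 1.56 (SE 0.315, adjusted p = 0.00915). H3f3a, a gene for replacement H3, rose by 0.67 (SE 0.192, adjusted p = 0.0286), a call that was lost without any of vehicle replicates 1 to 3 or DS-5272 replicates 2 and 3 (adjusted p 0.0603 to 0.0900) and with no filter (0.0795). H3f3b was at 277, 558 and 656 FPKM in vehicle and at 298, 763 and 937 FPKM in DS-5272. Like the members, it was low in replicate 1 of both groups, but the DS-5272 sample was higher in every pair. Its log2 fold change of 0.36 (SE 0.498, adjusted p = 0.578) had an adjusted p of 0.0307 with the block (0.0307 to 0.979 over all alternatives), but of 0.0897 with the block and no filter and 0.0594 without both samples numbered 1. The value was −0.02 and 0.601 without vehicle replicates 1 and 3 in turn and 0.86, 0.18 and 0.03 without DS-5272 replicates 1 to 3 in turn. H1f0, the replacement linker histone, was at 39.2, 78.8 and 56.7 FPKM in vehicle and at 14.5, 35.9 and 32.4 FPKM in DS-5272. Every DS-5272 sample was below every vehicle sample, and replicate 1 was lowest in both groups. Its log2 fold change of −1.09 (SE 0.385) had an adjusted p of 0.0546, of 0.00250 with the block and of 0.0499 without vehicle replicate 1, with 0.00250 to 0.161 over 17 alternatives, of which 7 passed, and the value was −0.70 without DS-5272 replicate 1.

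DNA synthesis genes were read as the process that histone supply accompanies. Of 30 listed genes 28 were tested, and 27 fell and 0 rose, against 22% and 24.2% of all genes, at a median of −1.68. Pcna, the sliding clamp, was at 251, 258 and 259 FPKM in vehicle and at 93.8, 171 and 93.0 FPKM in DS-5272. The vehicle samples were nearly equal, and DS-5272 replicate 2 was the highest of its group. It fell by 1.16 (SE 0.238, adjusted p = 0.00973). Tk1, a thymidine kinase, was at 29.2, 29.6 and 26.0 FPKM and at 4.42, 9.22 and 1.78 FPKM and fell by 2.45 (SE 0.428, adjusted p = 0.00615). Pole, a polymerase subunit, had the highest value at 0.32 (SE 0.297, adjusted p = 0.405), which was −0.04 without DS-5272 replicate 3 and 0.57 without DS-5272 replicate 1. Without both samples numbered 1, 15 of the 28 fell, against 14.9% of all genes, and the adjusted p of Pcna was 0.0521. The difference between the medians of these lists and that of the histone members was not tested.

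**Figure D5:**
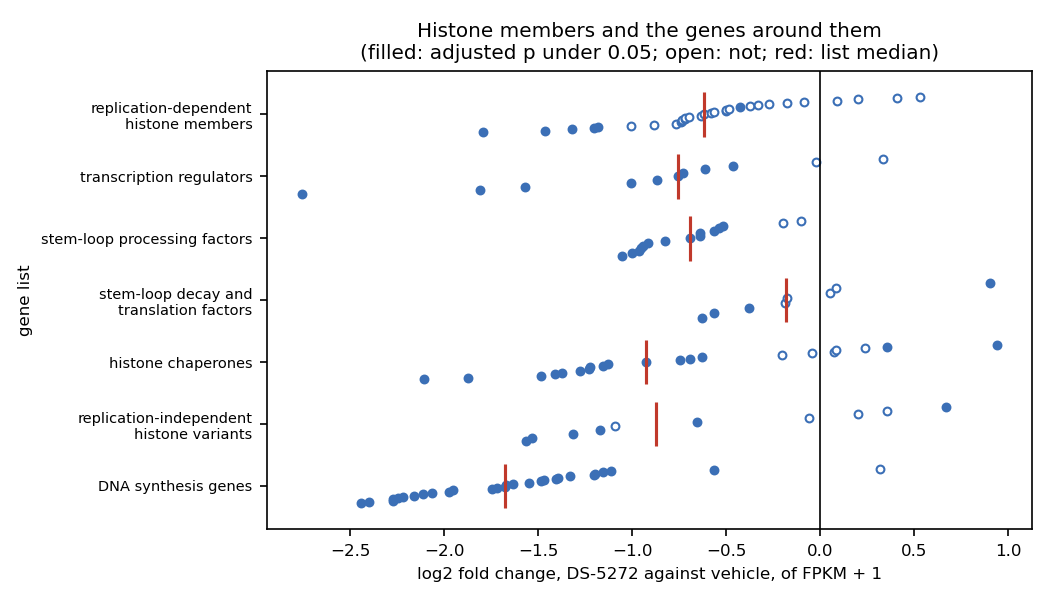
Log2 fold change of FPKM + 1, DS-5272 against vehicle, of the tested genes of the histone members and 6 lists, with filled points at an adjusted p under 0.05, open points otherwise and a red line at each median. The medians run from −1.68 for DNA synthesis genes to −0.18 for decay and translation factors, the members lie at −0.62, and their open points above 0 include Hist1h2bc, which turns negative with a common upper quartile or total.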

How the data were processed

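Total RNA was made into strand-specific libraries and sequenced from both ends. Per the submitters' processing notes, the authors trimmed reads with cutadapt 1.8.1, checked them with FastQC, aligned them to GRCm38 with TopHat2 2.1.1 and computed the deposited FPKM values per gene with Cufflinks 2.2.1. Poly(A) selection, strand use and the treatment of reads with several matches are not given in the sources used here. Groups were compared with limma 3.58.1 in R 4.3.3 (eBayes with trend, tests of both directions). Values were taken as log2(FPKM + 1), and 11130 genes averaging 1 FPKM or more were tested, with Benjamini-Hochberg adjustment over all of them at 0.05. Fold changes on this scale understate low genes, and an exact permutation test of 3 against 3 cannot go below p = 0.1.

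Replicate numbers come from sample titles. Deviations from the group means correlated by 0.658, 0.209 and 0.43 between samples of the same number and by −0.576 to 0.335 between others, the highest for vehicle replicate 2 with DS-5272 replicate 3. The labels name no pairing, and these values set replicate 1 apart without settling how replicates 2 and 3 match. Pairs and partners in the text mean equal numbers alone. As all same-numbered values were above 0.1, a second fit took the number as a block. Its values appear where it alters the call of a gene named by the rule below.

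Named were, in each class, the member with the highest mean and the tested members with the largest fall and rise, in each pathway list the same, and Slbp, Npat, Casp8ap2, Asf1b, Chaf1a, Chaf1b, H2afx, H2afz, H3f3a, H3f3b and H1f0. Members and lists were chosen with earlier results of these data known. Left out were 3 entries that join histone genes, listed genes in joined entries (Hinfp, Lsm10, Ipo4, Hjurp, Pold1, Cdc6, Hoxa9, Hoxa10, Hoxa7) and genes with no entry under their symbol (Supt16, Supt6, Hbb-bs, Hbb-bt, Ahsp, Trbc1, Adgre1). Sequences are from RefSeq GRCm38.p6 (promoters) and from GENCODE M21 (stem-loops).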

Additional observations from a re-analysis of the deposited data

How the results depend on the processing

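The fits without both samples numbered 1 and with the replicate block and no filter were added after seeing the data. The count of members called higher was 0 under every alternative run. The count called lower, 6, was 1 of 6 tested at a mean of at least 5 FPKM (23.3% of all genes), 18 with the replicate block, 19 with the block and no filter, 15 without both samples numbered 1, and 0 to 9 of 26 to 33 tested with each library left out in turn (12.6% to 22.1% of all genes). Classes H3 and H4 had no value at a mean of at least 5 FPKM, where the H2A median was 0.41 and 6 members were left. For all genes, leaving out each library gave 1404 to 2446 lower and 1654 to 2920 higher, and a common total gave 1773 higher. Without both samples numbered 1 the transcription regulators gave 2 lower, the decay and translation factors 1 lower, the chaperones 1 higher and the DNA synthesis genes 15 lower. A common total gave 5 lower among decay and translation factors and 1 higher among chaperones. The chaperones gave 1 to 2 higher and the variants 0 to 1 higher with each library left out, and the variants gave 0 higher with no filter and 2 with the block. Directions turned for Hist1h1c without vehicle replicate 2 (0.06), vehicle replicate 3 (0.12) or DS-5272 replicate 1 (0.71; range with each library left out −1.31 to 0.71), for Hist1h2bc with a common upper quartile (−0.0482) or total (−0.17), without vehicle replicate 1 (−1.04), DS-5272 replicate 2 (−0.21) or DS-5272 replicate 3 (−0.15; range −1.04 to 0.74) and without both samples numbered 1 (−0.51), for Hist1h4h without DS-5272 replicate 1 (0.0129; range −1.04 to 0.0129), for Pole without DS-5272 replicate 3 (−0.0429; range −0.0429 to 0.57) and for H3f3b without vehicle replicate 1 (−0.0185; range −0.0185 to 0.86), and no value among these passed the threshold. The cause was not tested. Beside the calls given in the text, the block changed no other call of a gene taken by the naming rule. Low depth limits members read from few fragments.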

Other observations

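Entries that join histone genes were outside the rule. The entry of Hist1h2ag and Hist1h4i was at 8.16, 18.8 and 13.6 FPKM in vehicle replicates 1 to 3 and, after DS-5272, at 2.9999, 6.76 and 5.70 FPKM in the same order, so its groups did not overlap. That of Hist1h3a and Hist1h3c was at 1.55, 6.03 and 7.24 FPKM and at 0.250, 2.55 and 1.16 FPKM, where DS-5272 replicate 2 lay above vehicle replicate 1. That of Hist1h1e and Hist1h2be was at 0.892, 3.44 and 2.86 FPKM and at 0.440, 2.66 and 4.90 FPKM, with the replicate 3 pair higher after DS-5272. In each entry, replicate 1 was the lowest sample of both groups. Of the 9 histone symbols above 0 in fewer than 3 samples, 7 were listed at 0 in all, among them Hist1h2ap.

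In 7 places an H2A and an H2B member start back to back within 1000 nt. Hist1h2ac and Hist1h2bc, 251 nt apart, had log2 fold changes of −0.72 (adjusted p = 0.433, 0.0463 with the block and 0.108 with the block and no filter) and 0.09, and their mean levels were 2.24 and 89.4 FPKM. Hist1h2ae and Hist1h2bg, 176 nt apart, had −0.58 (adjusted p = 0.2797, 0.0214 with the block and 0.0636 without both samples numbered 1) and −0.50. Hist1h2an and Hist1h2bp, 243 nt apart, had −0.74 (adjusted p = 0.148, 0.00791 with the block and 0.0667 without both samples numbered 1) and −0.88. In the fit without both samples numbered 1, Hist1h2bg was at −0.80 (adjusted p = 0.0234, against 0.719 with all 6 samples). Hist1h2bp was at −1.24 there (0.0303, against 0.159). In the Hist2 cluster Hist2h2ac and Hist2h2be, 239 nt apart, had −0.09 and −0.43. The direction of Hist1h2bc turned with a common upper quartile or total, and the differences within pairs were not tested. These genes were chosen for their position, outside the naming rule.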
